A study of Ovis aries with 3 samples.

Results

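The members are 4 genes of zinc handling, *MT1A*, *MT1C*, *MT2* and *SLC39A8*, out of 26478 genes listed in the deposited tables. They were selected on their differences between the libraries in earlier results of the same data, so their values are a description without a test. The files list them as ENSOARG00020023615 (*MT1A*), ENSOARG00020023648 (*MT1C*), ENSOARG00020023664 (*MT2*) and ENSOARG00020011858 (*SLC39A8*), without coordinates. They were followed mainly in erythroid cells, which were taken as cells with at least 5 unique molecular identifiers (UMIs) of *AHSP*, the haemoglobin alpha stabilising protein, and at least 2 of *ALAS2*, the first enzyme of erythroid haem synthesis.

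Droplet-based single-cell RNA profiles of whole sheep embryos were analysed in 3 libraries. E19 HSTS is a day 19 embryo of Hulunbuir short-tailed sheep, E19 HS a day 19 embryo of Hu sheep, and E16 HS is Hu sheep at day 16. The HSTS animals that the study genotyped were homozygous for a coding mutation in the transcription factor gene *T*, and the genotyped HS animals were homozygous for the wild-type allele. All 3 libraries were made with the same collagenase digestion and a step that lyses red blood cells. Each condition is 1 library, so breed, *T* genotype, embryo and preparation cannot be told apart, and no comparison has a replicate check. For E16 HS the label names a single embryo while the study's methods name 3, and the files do not settle this.

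Metallothioneins are small cysteine-rich proteins that bind zinc and copper. Their genes are switched on by the zinc-sensing transcription factor MTF1, and also by glucocorticoids and oxidative stress. *SLC39A8* encodes ZIP8, a transporter that brings zinc, and also manganese, iron and cadmium, into the cell. Erythroid cells have a high demand for metals, since they make haem and the zinc enzyme carbonic anhydrase.

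The erythroid rule was met by 1305 of the 10629 kept cells of E19 HS (12.3%, exact binomial 95% interval 11.7 to 12.9%), 2448 of 9618 in E19 HSTS (25.5%, 24.6 to 26.3%) and 1857 of 11329 in E16 HS (16.4%, 15.7 to 17.1%). Their median depths were 18210, 18072 and 14531 UMIs per cell in this order. All 11 listed erythroid identity genes with a symbol in the files, such as *GATA1* and *KLF1*, were found in a larger share of these cells than of the other cells in every library. Between 2.53% and 3.02% of the erythroid cells also met the rule of another cell group, the summed marker level of single other groups in them ranged from 0.658 to 162 UMIs per 1000000 UMIs (CPM), and libraries shared at most 2 erythroid barcodes. All intervals given cover counting error only.

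In erythroid cells the 3 metallothioneins were highest in E19 HS, lower in E19 HSTS and lowest in E16 HS. *MT2* stood at 1775 CPM in E19 HS (exact Poisson interval 1759 to 1792), at 230.3 CPM in E19 HSTS (226 to 235) and at 84.0 CPM in E16 HS (80.6 to 87.5). *MT1C* stood at 929 CPM (917 to 941) in E19 HS, 114 CPM (111 to 118) in E19 HSTS and 6.91 CPM (5.96 to 7.97) in E16 HS. *MT1A* stood at 219.7 CPM (214 to 226), 33.4 CPM (31.7 to 35.2) and 1.32 CPM (0.922 to 1.82) in the same order. In each library *MT2* was the most abundant of the 3 and *MT1A* the least, on a count of molecules from the 3′ end that does not grow with transcript length. The intervals of the 3 libraries did not overlap for any of these genes, but nothing is read from this. They cover counting error in 1 library each, and the genes were chosen for these differences.

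*SLC39A8* had the opposite order at day 19. ZIP8 is the only zinc importer among the members. It stood at 63.5 CPM (60.3 to 66.7) in E19 HS, 117 CPM (113 to 120) in E19 HSTS and 107 CPM (103 to 111) in E16 HS. By CPM, E19 HS was thus the library with the highest metallothionein level and the lowest *SLC39A8* level, although its *SLC39A8* order against E16 HS turned with TMM scaling (ratio 0.962).

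**Figure D1:**
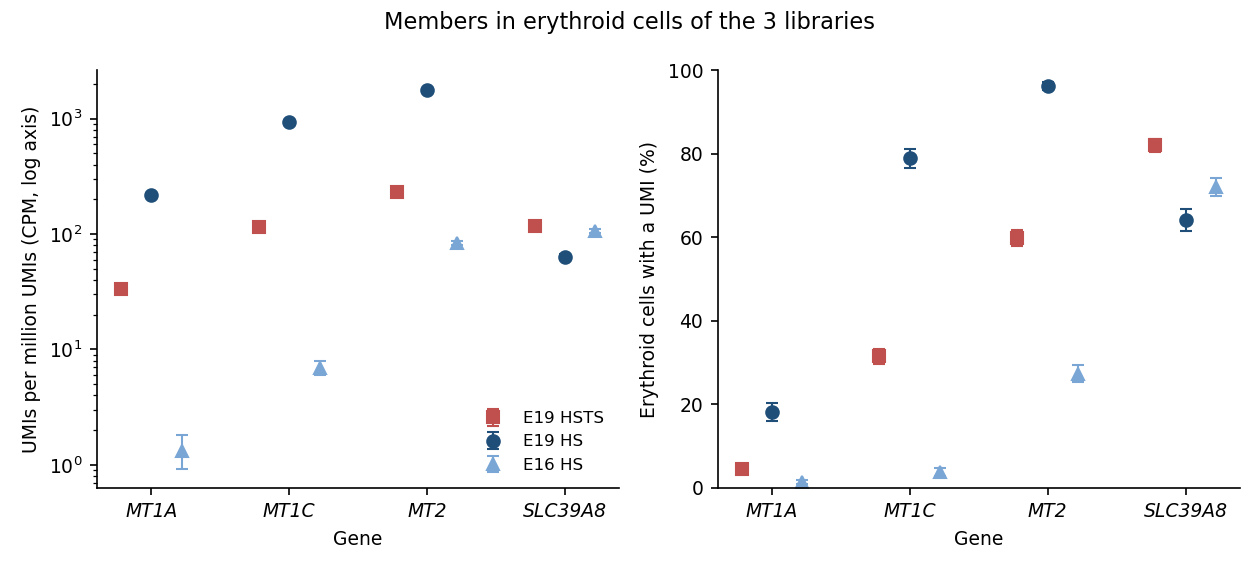
Left, level of each member in erythroid cells as CPM on a log axis, 1 point per library with its exact Poisson 95% interval. Right, share of erythroid cells with at least 1 UMI, with exact binomial 95% intervals. For each metallothionein E19 HS (dark blue circles) lies highest and E16 HS (light blue triangles) lowest, and for *SLC39A8* E19 HS lies lowest by CPM, an order that turns against E16 HS with TMM scaling (ratio 0.962).

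The share of erythroid cells with a UMI followed the same order as the levels. *MT2* was found in 96.4% of the erythroid cells of E19 HS (95.2 to 97.3%), in 59.9% of E19 HSTS (58.0 to 61.9%) and in 27.4% of E16 HS (25.3 to 29.4%). For *MT1C* the shares were 78.9%, 31.5% and 3.77%, and for *MT1A* they were 18.2%, 4.62% and 1.29%. *SLC39A8* was found in 64.2% of the erythroid cells of E19 HS, 82.1% of E19 HSTS and 72.1% of E16 HS. Because the libraries differ in depth, each cell was also thinned to 3000 UMIs, which left out 1 shallower erythroid cell of E19 HSTS and 17 of E16 HS. The thinned shares with *MT2* were 84.3%, 33.3% and 12.8% in E19 HS, E19 HSTS and E16 HS, and those with *SLC39A8* were 17.9%, 28.2% and 27.6%. The order of E19 HS against the other libraries held for both genes after thinning, while for *SLC39A8* the intervals of E19 HSTS (26.5 to 30.1%) and E16 HS (25.5 to 29.7%) overlapped.

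The question of the first comparison is how the breeds differ at day 19. Relative to E19 HS, *MT1A* in E19 HSTS was 6.58-fold lower, with a ratio of 0.152 (0.143 to 0.161). *MT1C* was 8.12-fold lower (ratio 0.123, 0.120 to 0.127) and *MT2* was 7.71-fold lower (ratio 0.130, 0.127 to 0.133). The sum of the 3 genes was 7.73-fold lower (7.60 to 7.86). *SLC39A8* was 1.84-fold higher in E19 HSTS (1.73 to 1.94).

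These differences can be set beside those of all genes. Of the 5140 genes with at least 100 UMIs in the higher library, 2.37% were at least 2-fold lower in E19 HSTS and 1.91% at least 2-fold higher, and the median gene differed by 0.03 on the log2 scale. All 3 metallothioneins were past this fold, and *SLC39A8* was not. Counted from the most reduced gene, *MT1C* was at rank 3, *MT2* at rank 4 and *MT1A* at rank 5. *SLC39A8* was at rank 140 from the highest, at 0.88 on the log2 scale. Since the choice of members used this contrast, nothing is read from these ranks.

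The second comparison asks how the stages differ within HS. It shares the E19 HS library with the first, so the low *SLC39A8* and high metallothionein values of E19 HS enter both. *MT1A* in E16 HS was 167-fold lower than in E19 HS, on 36 UMIs at day 16 (ratio 0.00599, 0.00419 to 0.00830). *MT1C* was 134-fold lower on 189 UMIs (ratio 0.00744, 0.00641 to 0.00858). *MT2* was 21.1-fold lower on 2298 UMIs (ratio 0.0473, 0.0454 to 0.0493). The fold was smaller for *MT2* than for the other metallothioneins, with intervals that do not overlap. *SLC39A8* was 1.68-fold higher in E16 HS by CPM (1.58 to 1.79), a direction that TMM scaling turned (ratio 0.962).

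The scale matters more in this comparison. In the erythroid cells, 4 genes that the files list without a symbol held 52.6%, 56.0% and 35.5% of all UMIs, in the order E19 HS, E19 HSTS, E16 HS. Of 5631 genes tested, 40.9% were at least 2-fold higher in E16 HS and 1.15% at least 2-fold lower, and the median of all genes was 0.88 on the log2 scale. TMM scaling, which discounts such dominant genes, left 258 genes higher and 205 lower, in place of 2301 and 65. The *SLC39A8* difference of 0.75 (log2) lay 0.13 below the median gene, and with TMM scaling it was -0.06 (ratio 0.962, 0.904 to 1.02). Its higher CPM at day 16 was therefore no larger than that of the typical erythroid gene. For *MT2*, *MT1C* and *MT1A* the log2 difference less that of the median gene was -5.28, -7.95 and -8.26. Their ranks from the most reduced gene were 6, 2 and 1. All 3 stayed lower in E16 HS with TMM scaling, at -5.21, -7.88 and -8.19. Since the members were chosen for this contrast too, these are descriptions.

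**Figure D2:**
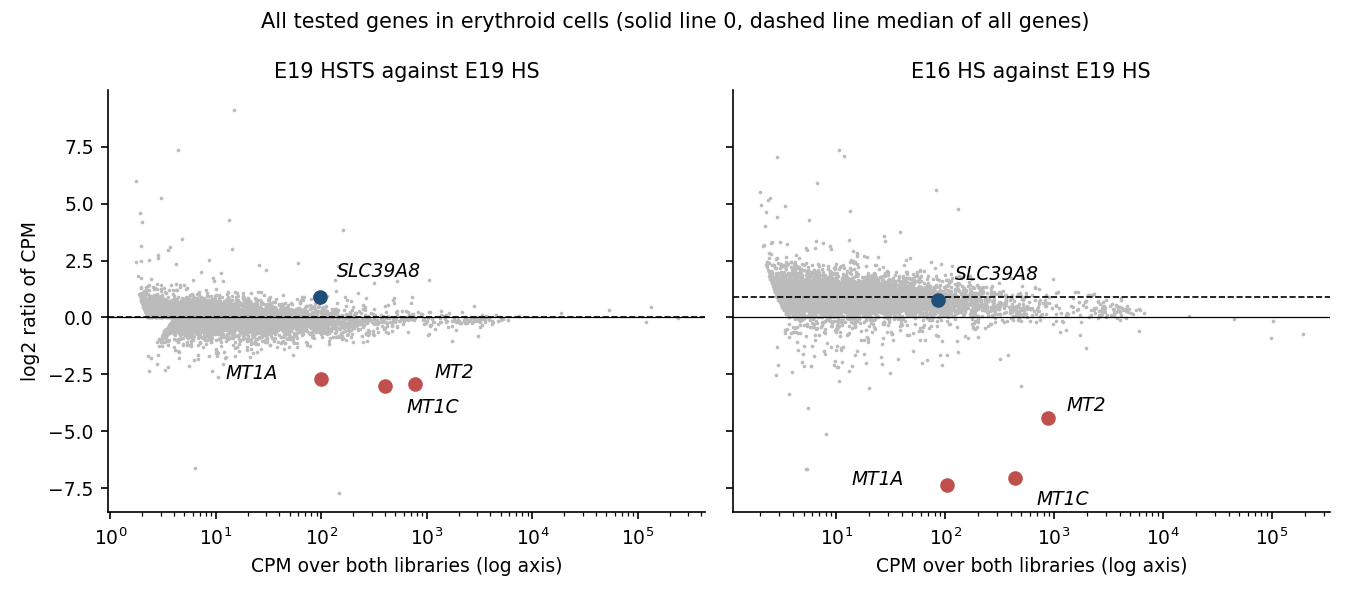
Each grey point is 1 of the genes tested in erythroid cells, 5140 at left and 5631 at right, with its CPM over both libraries (log axis) against the log2 ratio of CPM. The 3 metallothioneins (red) lie far below most of the cloud in both comparisons, at ranks 3, 4 and 5 from the lowest gene at left. At right they hold ranks 1, 2 and 6. *SLC39A8* (blue) lies near the upper edge of the cloud at left and at 0.75 at right, just below the dashed median line of 0.88.

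Within each library the metallothioneins were unevenly spread over the erythroid cells. Their sum had a median of 20.1 UMIs per 10000 in the cells of E19 HS, 0.908 in E19 HSTS and 0 in E16 HS. In E19 HS, 68.1% of the erythroid cells exceeded 10 UMIs per 10000, against 11.1% in E19 HSTS and 2.15% in E16 HS. Only 41 cells of E19 HS (3.14%) had no metallothionein UMI, against 895 in E19 HSTS (36.6%) and 1316 in E16 HS (70.9%). The libraries still overlapped, since 4.04% of the erythroid cells of E19 HSTS and 0.700% of E16 HS lay above the median cell of E19 HS. *SLC39A8* had a narrow spread, with medians of 0.513 UMIs per 10000 in E19 HS, 1.00 in E19 HSTS and 0.835 in E16 HS.

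**Figure D3:**
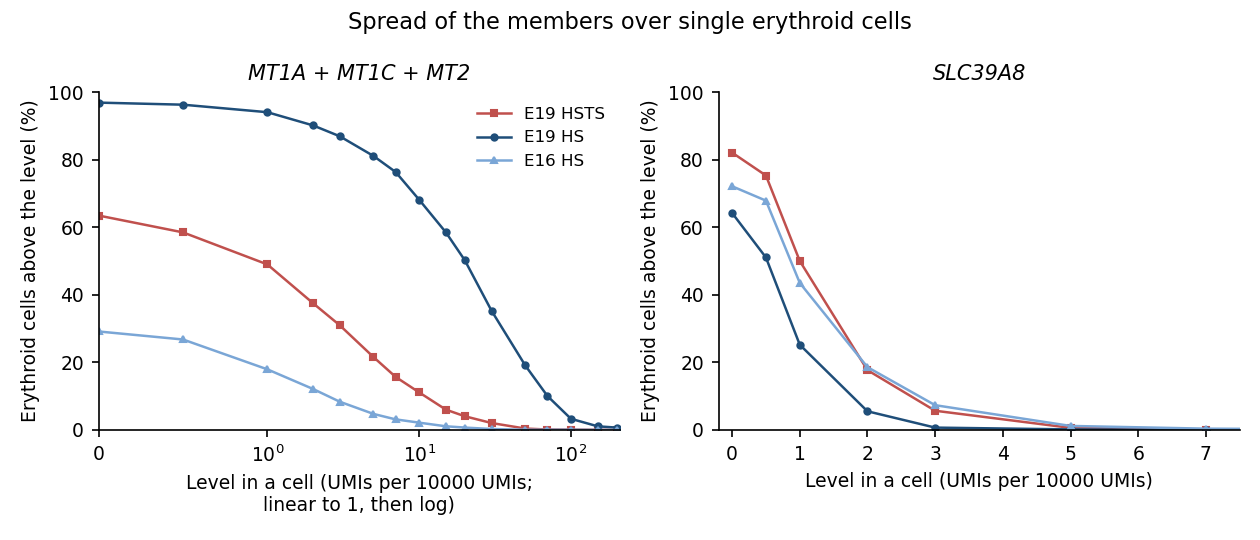
Share of erythroid cells (y axis, percent) above a given level in a cell (x axis, UMIs per 10000 UMIs), for the sum of *MT1A*, *MT1C* and *MT2* at left and *SLC39A8* at right, 1 line per library. At 10 UMIs per 10000 the metallothionein lines lie at 68.1% for E19 HS, 11.1% for E19 HSTS and 2.15% for E16 HS.

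*MT1C* and *MT2* were related from cell to cell, with the lowest correlation in E16 HS. Of the cells with *MT1C*, 99.7% also had *MT2* in E19 HS, where 96.4% of all erythroid cells had it. The shares were 90.5% beside 59.9% in E19 HSTS, and 71.4% beside 27.4% in E16 HS. Across the erythroid cells of a library, the Pearson correlation of their levels was 0.75 in E19 HS (1305 cells), 0.63 in E19 HSTS (2448 cells) and 0.40 in E16 HS (1857 cells). Spearman's rho was 0.76, 0.57 and 0.24. *MT1C* had 189 UMIs over the 1857 cells of E16 HS, and the effect of such sparse counts on the correlation was not tested. The cells of a library share its preparation and differ in depth, and no test was made. *SLC39A8* had almost no relation to *MT2* across cells, with correlations of 0.07, -0.03 and -0.01 in the same order.

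*MT1A* was concentrated in a small number of cells. In E19 HS, the 1% of erythroid cells with the most *MT1A* UMIs (13 cells) held 44.0% of its UMIs, while the 13 cells with the most *MT2* UMIs held 6.40% of the *MT2* UMIs. For E19 HSTS, the top 24 cells of each gene held 79.6% and 12.9%. A group of cells with at least 10 *MT1A* UMIs, a limit chosen after these values were seen, numbered 89 in E19 HS (6.82% of the erythroid cells), 32 in E19 HSTS (1.31%) and 0 in E16 HS. These cells held 94.2% and 86.3% of the *MT1A* UMIs but 15.7% and 5.97% of the *MT1C* UMIs. Their median depth was 18554 UMIs (E19 HS) and 21515 UMIs (E19 HSTS), and the other erythroid cells had 18208 and 18035. Liver and yolk sac genes (*AHSG*, *SERPINA1*, *TTR*, *APOA2*, *AFP*, also chosen afterwards) summed to 18.2 CPM in those of E19 HS against 53.1 CPM in the other erythroid cells, and to 87.9 against 107 CPM for E19 HSTS. At least 10 UMIs of these genes were found in 2 of the 32 cells rich in *MT1A* in E19 HSTS and in 8 of the other erythroid cells (0.331%). In E19 HS they were found in 0 of the 89 cells rich in *MT1A* and in 5 of the other erythroid cells (0.411%). With erythroid cells holding at least 10 UMIs of these 5 genes left out, *MT1A* was 221 CPM in E19 HS and 30.9 CPM in E19 HSTS, a choice also made after the values were seen.

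The makeup of the erythroid cells differed between all 3 libraries, most between the stages, as seen in how many genes a cell showed at 3000 UMIs. In the bin with the most genes lay 1553 erythroid cells of E16 HS, 198 of E19 HSTS and 111 of E19 HS, and in the bin with the fewest lay 4, 1483 and 503. Within the bins, the metallothionein sum was 7.61-fold, 8.76-fold and 7.06-fold lower in E19 HSTS than in E19 HS, from the fewest to the most genes. In E16 HS it was 19.2-fold lower in the middle bin and 26.5-fold lower in the bin with the most genes. *SLC39A8* was 2.08-fold (1.88 to 2.30), 2.04-fold (1.89 to 2.21) and 1.24-fold (1.03 to 1.498) higher in E19 HSTS in the 3 bins. For E16 HS its ratio to E19 HS was 0.923 (0.798 to 1.06) in the middle bin and 1.61 (1.38 to 1.89) in the bin with the most genes, so the higher CPM at day 16 was not seen in the middle bin. *MT1A* also varied between the bins, being 8.08-fold, 15.3-fold and 2.01-fold lower in E19 HSTS. Binned by UMIs per cell instead, the *SLC39A8* ratio of E16 HS was 1.63, 1.76 and 1.38, and the metallothionein sum in E19 HSTS was between 6.50-fold and 8.29-fold lower.

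**Figure D4:**
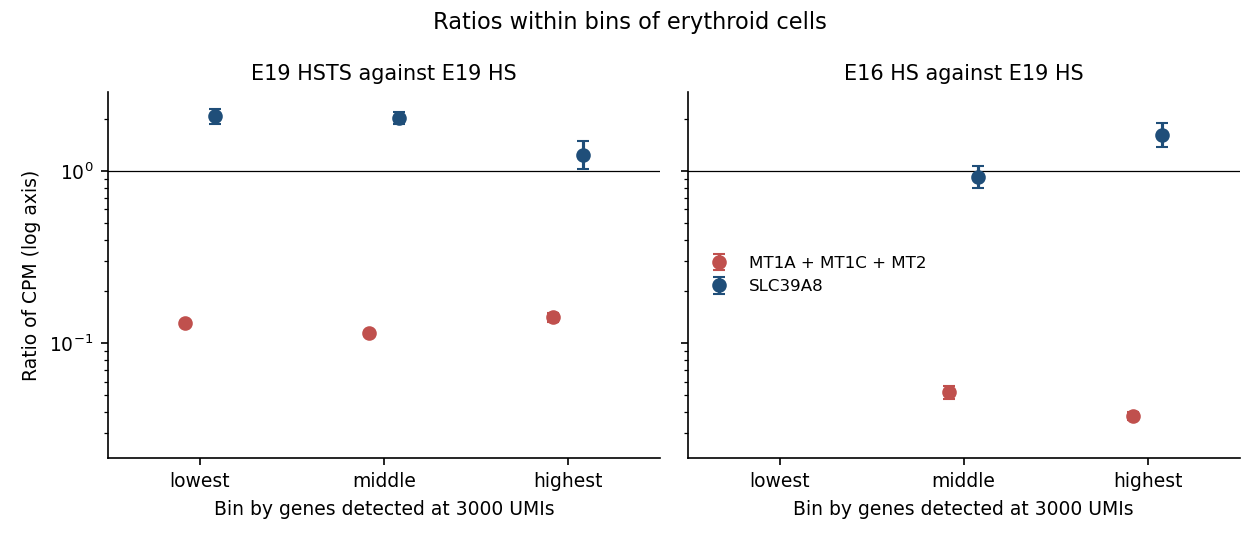
Ratio of CPM to E19 HS (log axis) within 3 bins of erythroid cells by the genes detected at 3000 UMIs, for the metallothionein sum (red) and *SLC39A8* (blue), with exact 95% intervals. At left the metallothionein sum of E19 HSTS stays near 0.13 in all bins. At right *SLC39A8* of E16 HS lies at 0.923 and 1.61, and the bin with the fewest genes is left out because it holds 4 cells.

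The split between *MT1C* and *MT2* differed between stages as well. *MT1C* made up 34.4% of the UMIs of the pair in the erythroid cells of E19 HS (34.0 to 34.7%) and 33.2% in E19 HSTS (32.5 to 34.0%), against 7.60% in E16 HS (6.59 to 8.71%). Metallothionein genes are alike in sequence, which was not examined here, and rows without a symbol could hold further copies. The split among the named copies, and their sum, are therefore uncertain.

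Among the other listed genes of metal handling with at least 100 UMIs in the higher library, none differed as much as the metallothioneins in either comparison. Below that minimum, the zinc importer *SLC39A5* had 2 UMIs in E19 HS and 38 in E19 HSTS (ratio 10.4, 2.69 to 88.9). *MTF1*, the zinc-sensing activator, had 41 UMIs in E19 HS, 76 in E19 HSTS and 62 in E16 HS, with a ratio of 1.01 (0.685 to 1.52) for E19 HSTS and 1.35 (0.893 to 2.05) for E16 HS. *SLC30A1*, the zinc exporter of the cell membrane and itself an MTF1 target, stood at 21.9, 20.6 and 23.9 CPM in the same order. Its ratios to E19 HS were 0.937 (0.841 to 1.04) and 1.09 (0.971 to 1.22), and its E16 HS log2 difference turned from 0.12 to -0.68 with TMM scaling. That of *MTF1* likewise turned from 0.43 to -0.38. In E19 HSTS, none of the 2 zinc importers and 2 zinc exporters with enough UMIs was past 2-fold, nor were any of the 5 genes of metal sensing and copper handling, beside 1.91% of all genes higher and 2.37% lower.

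In E16 HS, 3 of 4 tested zinc importers and 1 of 2 exporters were at least 2-fold higher than in E19 HS, beside 40.9% of all genes. The importers were *SLC39A10* (log2 1.34), *SLC39A3* (1.29) and *SLC39A7* (1.25), the last of which releases zinc from the endoplasmic reticulum. The exporter was *SLC30A10* (1.03), better known for moving manganese out of the cell. Relative to the median gene these were 0.46, 0.41, 0.37 and 0.15, and with TMM scaling none of the 6 was past 2-fold. The copper pumps *ATP7B* (2.20) and *ATP7A* (1.59) were also higher in E16 HS, and with TMM scaling *ATP7B* (1.40) remained past 2-fold. Among the other named metallothioneins, *MT3* had 38 erythroid UMIs in E19 HS, 46 in E19 HSTS and 5 in E16 HS, and *MT4* had 0 in all 3.

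Some stress genes differed between the libraries too. *FOS*, an early response gene that is switched on during tissue dissociation, had 407 erythroid UMIs in E19 HS, 10558 in E19 HSTS and 13 in E16 HS, and so was 14.2-fold higher in E19 HSTS than in E19 HS (12.9 to 15.7). Heat shock genes *HSPA1A* and *DNAJB1* were 5.24-fold (4.72 to 5.83) and 3.09-fold (2.92 to 3.27) higher in E19 HSTS. Of 5 tested dissociation genes 1 was at least 2-fold higher in E19 HSTS, and of 6 tested heat shock genes 2 were, beside 1.91% of all genes. In E16 HS both tested dissociation genes, *FOS* (log2 -5.14) and *JUN* (-2.04), and 2 of 6 heat shock genes, *HSPA1A* (-1.91) and *DDIT3* (-2.10), were at least 2-fold lower than in E19 HS, beside 1.15% of all genes, and with TMM scaling *DNAJB1* (-1.59) passed 2-fold as well. The part of dissociation, of red cell lysis and of stress in the metallothionein levels was not tested.

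The lists of other inducers gave few genes. None of the 5 tested oxidative stress genes or of the 3 tested hypoxia genes was past 2-fold in E19 HSTS, beside 1.91% of all genes higher and 2.37% lower, where *BNIP3* came close at a log2 difference of -0.99 and the hypoxia list had a median of -0.76. The tested glucocorticoid target *FKBP5* had a ratio of 1.07 (0.954 to 1.197) there. In E16 HS, *FKBP5* (log2 1.54), *TXNRD1* (1.60), and the hypoxia genes *BNIP3* (1.88) and *NDUFA4L2* (1.61) were at least 2-fold higher by CPM, beside 40.9% of all genes and a median gene of 0.88, and with TMM scaling 1 of these 4, *BNIP3* (1.08), was past 2-fold. No iron handling gene of 5 tested was past 2-fold in E19 HSTS, beside 1.91% of all genes higher and 2.37% lower. *SLC25A37* came close there, at a log2 difference of 0.95. In E16 HS none of the 5 was past 2-fold either, beside 40.9% of all genes higher and 1.15% lower. Their median there lay 0.47 below that of all genes on the log2 scale. Of the erythroid identity genes, *HBM*, a globin gene of the alpha cluster, was lower in E19 HSTS (log2 -1.29). The early erythroid list gave 1 tested gene, *CD34*, with a ratio of 1.11 (0.946 to 1.31) for E19 HSTS and no 2-fold difference in either comparison.

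*SLC39A8* was low outside erythroid cells. Its level in erythroid cells was 23.6-fold that of all other cells in E19 HS (20.2 to 27.8), 21.3-fold in E19 HSTS (19.0 to 24.0) and 34.8-fold in E16 HS (30.7 to 39.6). In the other marker-defined groups with at least 30 cells it ranged from 0 to 3.96 CPM, with 7 of 21 levels at 0. The highest of these levels, in the endoderm of E19 HS, came from 3 UMIs in 50 cells. Cells of no group numbered 7034 of 10629 in E19 HS, 5257 of 9618 in E19 HSTS and 6227 of 11329 in E16 HS. They had *SLC39A8* at 3.44, 7.52 and 4.84 CPM in this order. At least 5 *AHSP* UMIs were found in 94, 49 and 116 of them. Cardiomyocytes, muscle cells of the heart, had no *SLC39A8* UMI in 104 cells of E19 HS, which allows a share of cells with a UMI of up to 3.48% (exact binomial). The part of free RNA in these low levels was not tested. Part of the contrast in shares is set by depth, since the other cells had medians of 6380 (E19 HS), 7200 (E19 HSTS) and 8049 UMIs (E16 HS).

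Over the 24 sums of library and group, the genes with the *SLC39A8* pattern most like its own were *NFE2*, an erythroid transcription factor (Pearson r 0.94 on log2(CPM + 1)), and the haem synthesis genes *ALAD* (0.93) and *UROD* (0.92). For the metallothionein sum the most alike were *NUDT8* (0.71), the carbonic anhydrase gene *CA2* (0.69) and the erythroid gene *HEMGN* (0.68). Groups of a library share its preparation, and these values are a description over 6122 genes.

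The metallothioneins were not limited to erythroid cells in the same way. In E19 HS the erythroid level was 20.9-fold that of the other cells for *MT2*, 30.1-fold for *MT1C* and 14.0-fold for *MT1A*. The other cells include 30 with at least 50 metallothionein UMIs each, without which their levels were 57.4, 14.7 and 3.22 CPM, against 85.0, 30.9 and 15.7 CPM with them. In E19 HSTS the erythroid level was 5.48-fold, 6.38-fold and 1.22-fold that of the other cells, whose levels were 32.2, 7.86 and 5.59 CPM without 10 such cells and 42.0, 17.9 and 27.3 CPM with them. In E16 HS it was 2.43-fold for *MT2* but the ratio was 0.720 (0.611 to 0.844) for *MT1C* and 0.115 (0.08003 to 0.160) for *MT1A*. The *MT1C* direction rests on 17 cells with at least 50 metallothionein UMIs each, since the other 9455 non-erythroid cells of E16 HS had *MT1C* at 4.27 CPM (3.85 to 4.73), under the erythroid level of 6.91 CPM. In these cells *MT1A* stood at 2.98 CPM (2.62 to 3.37), still above the erythroid level of 1.32 CPM. Erythroid cells held 84.1% of the *MT1A* UMIs in E19 HS, 49.7% in E19 HSTS and 3.53% in E16 HS. For *MT1C* the shares were 91.9%, 83.8% and 18.7%. The cells with at least 50 metallothionein UMIs held 79.7% (30 cells), 79.6% (10 cells) and 74.1% (17 cells) of the *MT1A* UMIs outside erythroid cells in these libraries, so the *MT1A* shares rest on them.

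Neural progenitors, marked by genes such as *PAX6* and *SOX2*, had *MT2* and little *MT1A* or *MT1C*. *MT3*, a metallothionein known from the brain, stood there at 63.2 CPM in E19 HS, 48.6 CPM in E19 HSTS and 16.9 CPM in E16 HS. It was not particular to them, since cardiomyocytes had *MT3* at 130 CPM in E19 HS and 79.4 CPM in E19 HSTS. Gut epithelium had it at 39.6 CPM in E19 HS, 41.7 CPM in E19 HSTS and 4.35 CPM in E16 HS. *MT2* stood in neural progenitors at 106 CPM in E19 HS (95.9 to 117), 63.9 CPM in E19 HSTS (55.7 to 73.0) and 102 CPM in E16 HS (87.9 to 118). Thinned to 3000 UMIs, 17.4%, 14.6% and 23.6% of these cells had *MT2*, against 1.39% of 72 cardiomyocytes of E19 HS. *MT1C* made up 5.13% of the pair in the neural progenitors of E19 HS (3.21 to 7.74%), beside 34.4% in erythroid cells. In E16 HS it made up 3.70% (1.502 to 7.48%), which overlaps the interval of erythroid cells. E19 HSTS was 1.66-fold lower than E19 HS in *MT2* here, and E16 HS had a ratio of 0.962 (0.803 to 1.15).

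In gut epithelium, marked by *CLDN7*, *KRT7*, *CLDN4* and *CDX2*, all 3 metallothioneins were found. *MT2* stood at 79.0 CPM in E19 HS, 61.9 in E19 HSTS and 35.7 in E16 HS, and *MT1C* at 49.1, 22.0 and 15.9 CPM. *MT1A* stood at 32.6, 30.5 and 4.88 CPM, with a ratio of 0.935 (0.705 to 1.24) for E19 HSTS, whose interval holds no difference, and 0.1495 (0.09998 to 0.219) for E16 HS. Its 107 UMIs in E19 HS came from 10 of 304 cells. The metallothionein sum was 1.40-fold lower in E19 HSTS (1.23 to 1.61) and 2.84-fold lower in E16 HS (2.497 to 3.24) than in E19 HS.

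Extraembryonic or hepatic endoderm, marked by *APOA2*, *FGG*, *FGB* and *AHSG*, was a group of 50 cells for E19 HS and 47 for E19 HSTS. *MT2* stood at 149 CPM (123 to 179) in E19 HS and 22.7 CPM (13.0 to 36.8) in E19 HSTS, and the metallothionein sum was 7.97-fold lower in E19 HSTS (4.88 to 13.8), on 18 UMIs. A wider set, chosen after the values were seen, took all non-erythroid cells with at least 10 UMIs of the liver and yolk sac genes above. In it *MT2* stood at 275 CPM in 154 cells of E19 HS (251 to 301) and 329.8 CPM in 146 cells of E19 HSTS (304 to 357). Cells with at least 50 metallothionein UMIs held much of this, with 215 of 490 *MT2* UMIs in 4 cells of E19 HS. In E19 HSTS, 9 such cells held 522 of 601. The level of the wider set thus rests on a few cells and does not describe the others. In mesenchyme the sum was 17.3 CPM in E19 HS, 13.6 in E19 HSTS and 8.18 in E16 HS, with a ratio of 0.787 (0.593 to 1.04) for E19 HSTS and 0.473 (0.379 to 0.593) for E16 HS. Endothelial cells had ratios of 0.949 (0.440 to 2.00) and 0.769 (0.146 to 2.61), on at most 19 UMIs, and both intervals hold a ratio of 1. In early neurons of E19 HSTS the sum was 4.95-fold lower (1.86 to 16.5), on 5 UMIs. In neural progenitors the sum was 1.65-fold lower in E19 HSTS (1.40 to 1.94), and cardiomyocytes had a ratio of 1.24 (0.378 to 4.35). The part of free RNA from erythroid cells in the levels of the other groups was not tested.

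**Figure D5:**
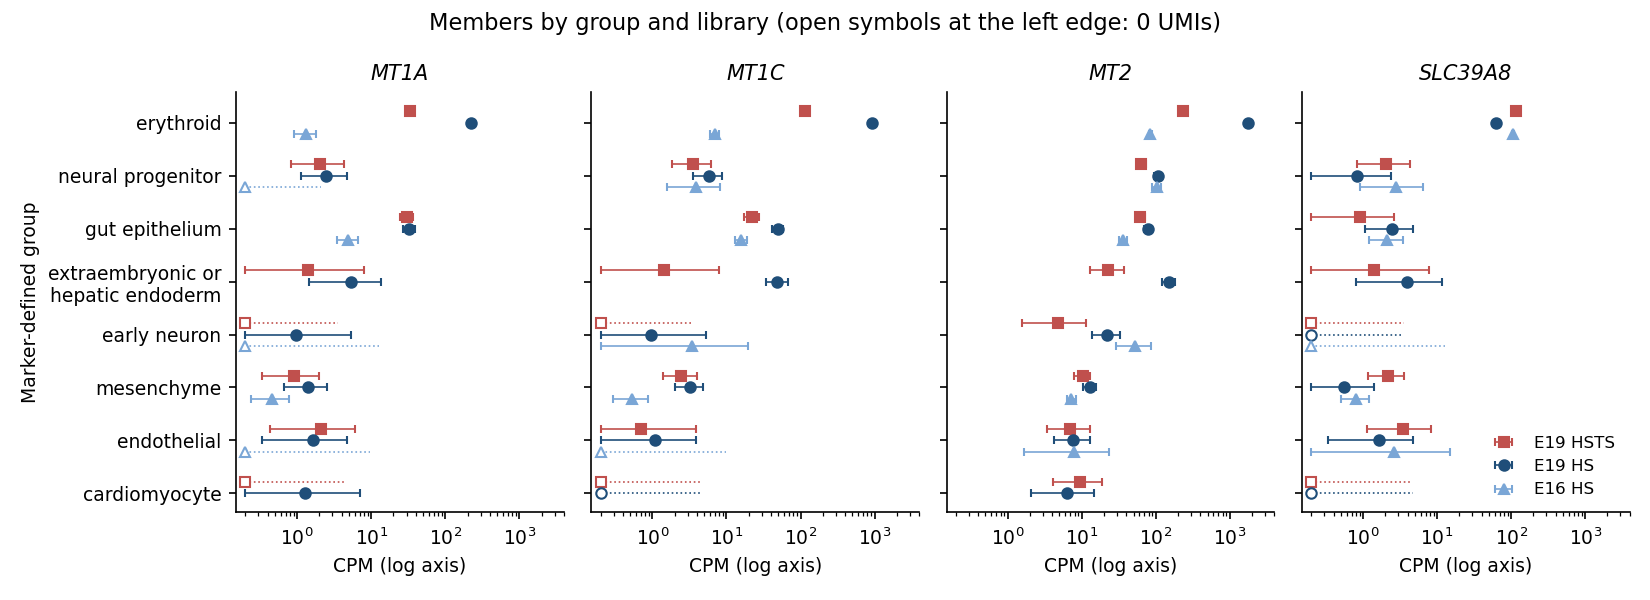
Level of each member (CPM, log axis) in 8 marker-defined groups, 1 symbol per library with its exact Poisson 95% interval, whose lower end is drawn no lower than 0.2 CPM. Open symbols at the left edge mark 0 UMIs with a dotted line to the upper limit, and groups with under 30 cells are left out. *SLC39A8* lies at 63.5 to 117 CPM in erythroid cells and at most at 3.96 CPM in the other groups drawn. *MT2* is also found in neural progenitors and gut epithelium.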

How the data were processed

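The authors processed the reads with Cell Ranger (6.1.2) against a sheep reference genome and deposited raw UMI counts per gene and cell, 94754580 in E19 HS, 107817481 in E19 HSTS and 128271878 in E16 HS. The submitters' notes also name R (4.1.2) and Seurat (4.1.1). The members, gene lists and marker lists were chosen with earlier results of these data known. Kept cells had 200 to 6000 genes and 1000 to 30000 UMIs, at most 10% of them mitochondrial, and doublets were not removed in the main setting. UMIs were summed over the cells of a group and library and divided by its total, giving UMIs per 1000000 UMIs (CPM). Intervals (95%) were exact Poisson for levels, conditional binomial for ratios and Clopper-Pearson for shares (Python 3.11.15, scipy 1.17.1). For ranks, 0 UMIs in the lower library were replaced by 3. TMM factors came from edgeR 4.0.16 in R 4.3.3. Other groups needed at least 2 of their markers (3 for endoderm) and left out erythroid cells. Besides the members, *MTF1* and *SLC30A1*, genes of the lists were named when past 2-fold with at least 100 UMIs, at most 4 per list. *MT3*, *MT4*, *SLC39A5*, *CD34* and, in E19 HSTS, *FKBP5*, *BNIP3* and *SLC25A37* were named after their values were seen. Of 105 listed genes, 90 had a symbol in the files. The alternatives were other cell filters and erythroid rules, TMM scaling, a denominator without the 20 most abundant genes, thinning to 3000 UMIs, at least 500 UMIs per gene, and no erythroid cells that met another rule. In simulated counts of 26478 genes, ratio intervals included the simulated ratio of 93.5% of 200 changed genes for E19 HSTS and 96.0% for E16 HS, each against E19 HS. Some genes are not reported here.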

Additional observations from a re-analysis of the deposited data

Results flagged for a closer look

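*MT2* differed between E16 HS and E19 HS in opposite directions in erythroid cells and early neurons. In early neurons it was 2.36-fold higher in E16 HS (1.15 to 4.73), on 15 UMIs in 31 cells against 23 UMIs in 176 cells, while in erythroid cells it was 21.1-fold lower. With 1 library per stage the difference between the groups was not tested.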

How the results depend on the processing

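No paired analysis was possible because each condition is 1 library. The metallothionein sum kept its direction under every alternative run, and so did *SLC39A8* in E19 HSTS. For E19 HSTS against E19 HS, the metallothionein ratio was 0.133 with all deposited cells, 0.126 with the stricter erythroid rule, 0.141 without the 20 most abundant genes and 0.134 after thinning, and the *SLC39A8* ratio was 2.01 and 2.16 under the last 2 of these. For E16 HS against E19 HS, the metallothionein ratio was 0.0295 with the stricter rule, 0.0181 with TMM scaling, 0.0224 without the 20 most abundant genes and 0.0345 after thinning. The *SLC39A8* ratio was 0.962 with TMM scaling, which turned its direction, 1.19 without the 20 most abundant genes and 1.98 after thinning. Genes past 2-fold numbered 220 in E19 HSTS, 94 with at least 500 UMIs and 97 after thinning, since fewer genes were then tested. In E16 HS they numbered 2366, 1006 and 1008, and 463 with TMM scaling. Fold differences of single metallothioneins were 5.62 to 8.43 for E19 HSTS, and 19.8 to 292 for E16 HS, all lower than E19 HS. *MT1A* in E16 HS rests on 36 UMIs, and at 0 UMIs small groups allow several CPM.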

Other observations

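A small number of cells outside the erythroid rule held much of the remaining metallothionein RNA. Cells with at least 50 metallothionein UMIs, a limit chosen after the values were seen, numbered 10 of 7170 in E19 HSTS, 30 of 9324 in E19 HS and 17 of 9472 in E16 HS, and they held 47.9%, 43.2% and 34.6% of the metallothionein UMIs outside erythroid cells. Of the *MT1A* UMIs there they held 79.6%, 79.7% and 74.1%. At least 10 UMIs of the liver and yolk sac genes (*AHSG*, *SERPINA1*, *TTR*, *APOA2*, *AFP*) were found in 9 of the 10 in E19 HSTS, 4 of the 30 in E19 HS and 17 of the 17 in E16 HS, and 23 of the 30 in E19 HS had at least 5 *AHSP* UMIs without meeting the erythroid rule. In the cells with these liver and yolk sac genes, *MT1A* stood at 8286 CPM in E19 HSTS (9 cells), 3679 CPM in E19 HS (4 cells) and 3586 CPM in E16 HS (17 cells), levels that the choice of cells raises. *SLC39A8* had 1, 0 and 1 UMIs in them. Over all non-erythroid cells with at least 10 UMIs of these genes, *MT1A* stood at 709 CPM in E19 HSTS (146 cells), 193 CPM in E19 HS (154 cells) and 1104 CPM in E16 HS (86 cells). These levels rest largely on the same 9, 4 and 17 cells. They held 1198 of 1292 *MT1A* UMIs of the set in E19 HSTS, 284 of 344 in E19 HS and 728 of 905 in E16 HS. In E16 HS, the 20 cells of extraembryonic or hepatic endoderm had *MT1A* at 4406 CPM (4078 to 4754), where the 50 cells of E19 HS had 5.28 CPM (1.44 to 13.5). With 20 cells at day 16, this group was below the minimum of 30 cells set for comparisons between libraries.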
